A study of Homo sapiens with 6 samples.

Results

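The genes described here make, desaturate, elongate, activate, store and oxidise fatty acids. They were chosen by symbol from a list of 38 genes, and all 38 were found among the 26490 gene symbols of the count table. Their messenger RNA levels were measured by RNA-seq in SW403, an established human colon adenocarcinoma cell line. IRS2, the gene lowered in this study, encodes a docking protein (insulin receptor substrate 2) that binds active receptors for insulin and IGF1 and recruits kinases to them. The control group, 3 libraries, has the genotype WT and the letters NS in its labels. The knockdown group, 3 libraries, is labelled IRS2 knockdown in its genotype and titles and carries the letters KO in its descriptions. All cells were plated in triplicate and cultured for 24 h in DMEM with 10% fetal bovine serum, and received no treatment. The titles call every library a biological replicate (bio_rep), without saying what was repeated. The labels do not give how IRS2 was lowered, or whether the 3 samples of a group came from separate lines or clones. The p-values therefore measure the spread between these samples, which may still be technical.

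Cells build palmitate from acetyl-CoA in the cytosol: ATP citrate lyase (ACLY) and ACSS2 supply acetyl-CoA, acetyl-CoA carboxylases turn it into malonyl-CoA, and fatty acid synthase (FASN) joins the units. Elongases and desaturases then lengthen the chain or add double bonds, and acyl-CoA synthetases attach coenzyme A before a fatty acid can be stored as triglyceride or burned. The transcription factor SREBP1, encoded by SREBF1, drives many of the synthesis and desaturation genes, and insulin signalling is a textbook activator of it. For oxidation, CPT1 loads long chains onto carnitine at the mitochondrion, a step that malonyl-CoA inhibits, and beta-oxidation hands its electrons to the respiratory chain through ETFA, ETFB and ETFDH.

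The libraries held 11816973 to 12585013 counts in control and 14329348 to 18114656 in knockdown, so every knockdown library was deeper. The share of each library's counts that fell on the 38 genes was 0.405% to 0.42%. IRS2 (GRCh37 chr13:110405042-110438930) was counted 408, 437 and 381 times in control and 186, 210 and 216 times in knockdown, a 2.62-fold fall (log2 fold change -1.39 ± 0.07 SE, edgeR adjusted p = 3.12e-11). Among 12 colon epithelial markers, KRT8, KRT18, KRT19, EPCAM, CDX2 and VIL1 passed the filter on low counts. The list summed to 2537 to 2637 CPM in control and 2364 to 2456 CPM in knockdown, lower in every knockdown library. KRT8 and KRT18 made up most of that sum, with 14010 and 14606 counts in control 1, against 950 for CDX2 and 62 for VIL1. On the same scale KRT8, KRT18, KRT19 and EPCAM were lower in every knockdown library, while CDX2 and VIL1 were higher in every one. KRT20, CDX1 and TFF3 had no count in any library, and CDH1 had 0 to 5. Fibroblast markers summed to 27.6 CPM (counts scaled to a library of fixed size) in control 1 and to 5.80 to 10.4 CPM in the other 5 libraries, led by the collagen gene COL1A1 with 193 counts in control 1 and 61 to 72 elsewhere. Adipocyte markers summed to 1.35 to 2.07 CPM in control and 0.469 to 0.698 CPM in knockdown libraries, with ADIPOQ at 0 throughout. Most of that sum was LPL, with 16, 14 and 13 counts in control and 8, 7 and 8 in knockdown. PLIN1 came next, with 7, 3 and 2 counts in control and 1, 0 and 3 in knockdown. Immune markers summed to 1.83 to 3.20 CPM and endothelial markers to 0.339 to 0.876 CPM, with PECAM1 and CDH5 at 0. The part of depth and of these markers in the results below was not tested. With counts thinned to the smallest library, ACLY was the member whose call was lost, and without control 1 the calls of ACLY, ELOVL6 and HADHA were lost.

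In the knockdown libraries the enzymes of palmitate synthesis had log2 fold changes between -0.10 and -0.01, and ACLY was the one of them that passed the test. The desaturases SCD and FADS2 and the elongase ELOVL7 fell. The acyl-CoA synthetases ACSL1, ACSL4 and ACSL5, the 3 lipins, the droplet coat gene PLIN2 and the oxidation gene CPT1A rose. Other called genes of these roles went the other way: ACSL3, the lipase gene PNPLA2 and the oxidation genes ETFA and ETFDH fell, and ELOVL6 rose. The 10 oxidation genes were split, with 5 above 0, 5 below and a median log2 fold change of 0.01. In bulk RNA, fewer cells that express a gene and less of its RNA per cell cannot be told apart. All 38 genes had enough counts to be tested, with means of 39.3 to 8147 counts. In edgeR's quasi-likelihood test, at an adjusted p under 0.05, 22 of the 38 were called, where 38.5% of all 13832 tested genes were. Of these, 12 were higher in knockdown (19.3% of all tested genes were) and 10 were lower (19.2% of all tested genes were). The values of the 2 groups did not overlap for 22 members, and for 47.6% of all tested genes. The members had a median of 992 counts, against 409.8 for all tested genes, and the part of this in the share called was not tested. Changes were small: 7 of the 38 had an absolute log2 fold change of at least 0.3, and the median absolute value was 0.12, against 0.14 over all tested genes. Directions were mixed, with 16 members above 0, 22 below and a median log2 fold change of -0.01. All tested genes had 6807 above 0, 7025 below and a median of -0.0039. The 16 members that did not pass the test had log2 fold changes from -0.10 to 0.13, and their 95% intervals together spanned -0.28 to 0.41. Over 22 alternative analyses, the call was lost in 12 for ACLY, 12 for ELOVL1, 10 for FADS1, 5 for HADHA, 4 for ELOVL6, 3 each for LPIN1 and LPIN3 and 1 for ETFB. The other 14 calls held in every alternative that tested the gene; ELOVL7 was tested in 21.

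**Figure D1:**
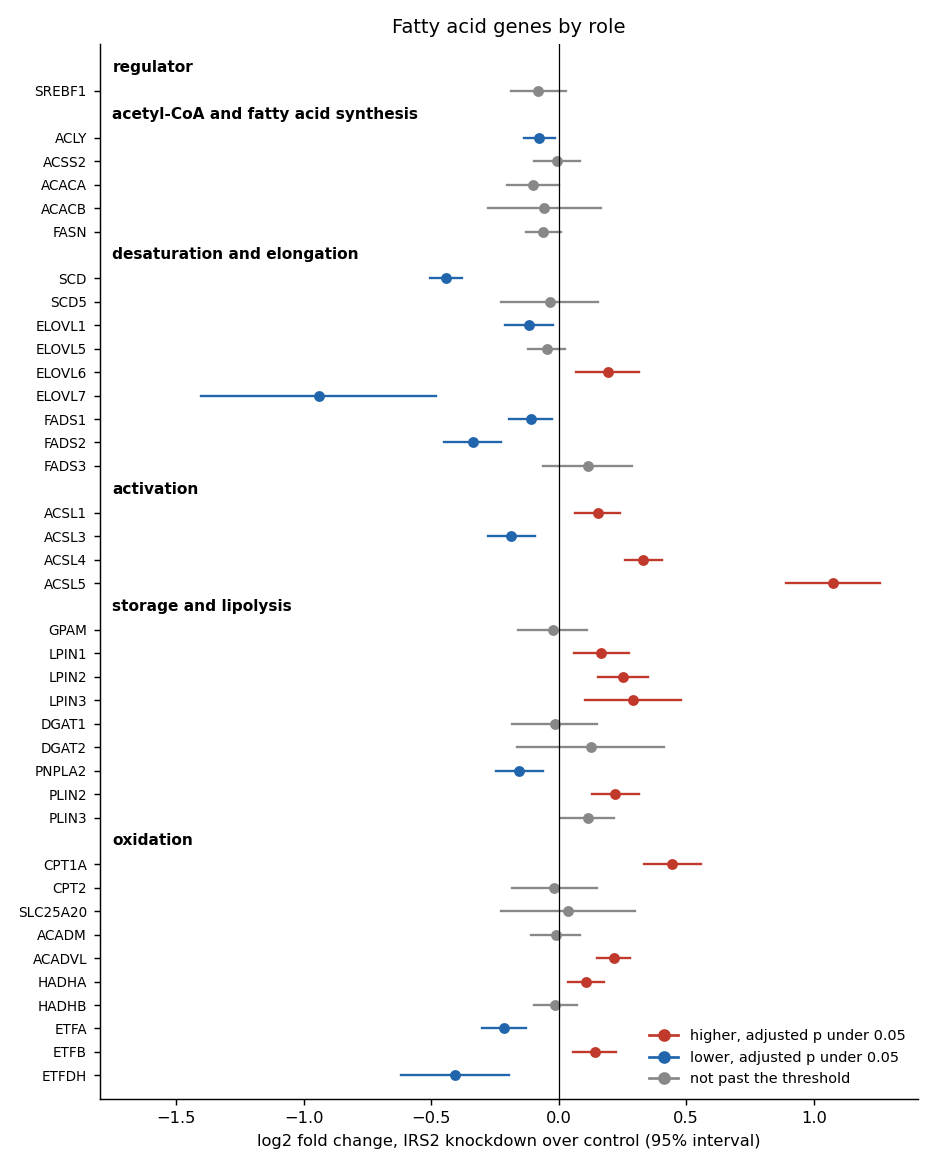
Log2 fold change of each of the 38 genes in IRS2 knockdown over control, grouped by role; points are edgeR estimates, lines are 95% intervals, and colours mark the 12 genes called higher, the 10 called lower and the 16 not past the threshold. ACSL5 lies farthest to the right at 1.07 and ELOVL7 farthest to the left at -0.94, and the synthesis enzymes sit just below 0.

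SREBF1, the gene of SREBP1, had 80.2, 71.8 and 72.8 CPM in control and 68.9, 75.1 and 68.6 CPM in knockdown (CPM scaled by TMM factors here and below). The groups overlapped, with control 1 the highest library and the other 5 within a narrow band. Its log2 fold change was -0.08 ± 0.05 (95% interval -0.19 to 0.03), and it did not pass the test (edgeR adjusted p = 0.236). Without control 1 it was -0.03 (edgeR adjusted p = 0.719). The canonical transcript of SREBF1 (GRCh37 chr17:17713713-17740316, minus strand) shares 120 exonic bases with RAI1 on the opposite strand. RAI1 had 105 ± 3.03 CPM (SD, n = 3) in control and 115 ± 3.36 CPM in knockdown, and whether the counting used strand is not given in the sources used here.

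Of the 5 enzymes that lead from acetate or citrate to palmitate, ACLY was called lower and the other 4 did not pass the test; their log2 fold changes ran from -0.10 to -0.01. ACLY, which splits citrate into acetyl-CoA and oxaloacetate, had 420, 424 and 429 CPM in control and 407, 399 and 402 CPM in knockdown. Every knockdown library was below every control library, by a small margin. Its log2 fold change was -0.08 ± 0.03 (edgeR adjusted p = 0.0425). That call was lost on leaving out any library except knockdown 3 (adjusted p 0.0524 to 0.151 in edgeR, log2 fold change -0.08 to -0.06), with the replicate number as a block (adjusted p = 0.101) and in DESeq2's Wald test. ACACA, the main acetyl-CoA carboxylase, had 106, 109 and 109 CPM in control and 108, 102 and 92.5 CPM in knockdown. The groups overlapped because knockdown 1 stood at the control level, and knockdown 3 was the lowest library. Its log2 fold change was -0.10 ± 0.05 (95% interval -0.20 to -0.00066, edgeR adjusted p = 0.105). Without knockdown 1 it was called lower, at -0.15 (edgeR adjusted p = 0.0269), and without knockdown 3 its log2 fold change was -0.04 (edgeR adjusted p = 0.481). FASN had 594, 584 and 564 CPM in control and 570, 569 and 533 CPM in knockdown. The groups overlapped, with knockdown 3 again the lowest, and the log2 fold change was -0.06 ± 0.03 (95% interval -0.13 to 0.01, edgeR adjusted p = 0.156). When libraries were scaled by their totals alone, both ACACA (-0.13, adjusted p = 0.0424) and FASN (-0.09, adjusted p = 0.0318) were called lower in edgeR. Without knockdown 3, FASN had -0.03 (edgeR adjusted p = 0.477).

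ACSS2, which makes acetyl-CoA from acetate, had 79.4 ± 0.881 CPM (SD, n = 3) in control and 78.9 ± 3.09 CPM in knockdown, with a 95% interval for the log2 fold change of -0.10 to 0.08. ACACB, the carboxylase at the outer mitochondrial membrane, had 11.01 ± 0.695 CPM and 10.6 ± 1.17 CPM, with an interval of -0.28 to 0.17. Per transcript length, in TPM (counts divided by transcript length and scaled to a fixed sum), ACLY stood at 247 ± 5.64 in control (SD, n = 3) and FASN at 171 ± 2.42, far above ACACA at 26.9 ± 0.762 and ACACB at 2.93 ± 0.174. ACACA made up 90.2 ± 0.536% of the carboxylase TPM in control and 89.9 ± 0.351% in knockdown, a difference smaller than the spread between libraries.

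The desaturation and elongation genes held the largest falls. Of 9, 5 were called lower, 1 higher and 3 did not pass the test, and their median log2 fold change was -0.11. Among all tested genes, 19.2% were called lower and 19.3% higher. SCD, stearoyl-CoA desaturase, puts the double bond into palmitate and stearate. SCD (GRCh37 chr10:102106990-102124583) had 442, 460 and 446 CPM in control and 333, 336 and 324 CPM in knockdown. All 3 knockdown libraries lay well below all 3 controls, and replicates of a group were close to each other. The fall was 1.36-fold, a log2 fold change of -0.44 ± 0.03 (95% interval -0.51 to -0.38, edgeR adjusted p = 1.53e-09). Its relative SCD5 had 14.4 ± 1.48 CPM in control and 14.0 ± 0.434 CPM in knockdown (log2 fold change -0.04, 95% interval -0.23 to 0.15). In TPM, SCD made up 94.8 ± 0.591% of the summed SCD and SCD5 level in control and 93.2 ± 0.188% in knockdown, while the sum went from 225 ± 4.71 to 169.6 ± 5.86 TPM.

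FADS2, the delta-6 desaturase at the entry to polyunsaturated fatty acid synthesis, had 57.4, 51.1 and 53.2 CPM in control and 41.4, 44.02 and 42.5 CPM in knockdown. The groups did not overlap, and the log2 fold change was -0.34 ± 0.05 (1.26-fold lower, edgeR adjusted p = 5.65e-05). FADS1, the delta-5 desaturase that acts after FADS2, went from 116 ± 3.60 to 107 ± 3.85 CPM, a log2 fold change of -0.11 ± 0.04 (edgeR adjusted p = 0.0391). Its call was lost without control 2, control 3, knockdown 1 or knockdown 3 (adjusted p 0.0824 to 0.156 in edgeR) with the replicate block (adjusted p = 0.0649), and in DESeq2's Wald test. FADS3, the third gene of this cluster, had 18.7 ± 0.206 CPM in control and 20.1 ± 2.26 CPM in knockdown and did not pass the test (95% interval of the log2 fold change -0.06 to 0.29). On GRCh37 chromosome 11, FADS1 (chr11:61567099-61596790, minus strand) lies within the annotated span of FADS2 (chr11:61560452-61634826, plus strand), and FADS3 (chr11:61640991-61659523, minus strand) lies beside them. The share of FADS2 in their summed TPM was 32.0 ± 1.71% in control and 27.8 ± 0.250% in knockdown.

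Because SCD and FADS2 were the SREBP1-type genes with the largest falls, the 250 bases upstream of a RefSeq start (GRCh38.p14, plus strand, 5′ to 3′) are shown for each: SCD at chr10:100346983-100347232 and FADS2, the upstream of its 2 listed starts, at chr11:61815953-61816202. Capitals mark CCAAT, the box bound by NF-Y, a factor known to act with SREBP1.
SCD: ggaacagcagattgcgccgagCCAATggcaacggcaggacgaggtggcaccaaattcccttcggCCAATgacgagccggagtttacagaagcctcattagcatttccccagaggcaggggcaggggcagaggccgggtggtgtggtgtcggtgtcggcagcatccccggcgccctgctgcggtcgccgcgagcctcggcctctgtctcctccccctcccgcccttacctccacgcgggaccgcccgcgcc
FADS2: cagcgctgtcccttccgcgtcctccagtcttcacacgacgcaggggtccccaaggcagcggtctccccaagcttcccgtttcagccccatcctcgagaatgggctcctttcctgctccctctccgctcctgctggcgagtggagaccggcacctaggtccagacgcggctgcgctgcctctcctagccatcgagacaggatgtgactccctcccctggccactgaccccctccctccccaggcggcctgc
The SCD stretch held CCAAT at 2 places, was 68.0% G or C and had 23 CpG dinucleotides. The FADS2 stretch held none of the motifs searched, was 67.2% G or C and had 16 CpG dinucleotides. The search covered TCACNCCAC, a sterol regulatory element, TCACNTGA, CACGTG (the E-box) and CCAAT on both strands of windows of 300 bases, 250 before to 50 after a start. Of the 38 genes, 33 had at least 1 window, 49 in all. ETFDH, FASN, DGAT1, DGAT2 and LPIN3 had none. TCACNCCAC was in 2 of the 49 windows (ACSL1 and PNPLA2) and in 1.13% of all 35116 windows. TCACNTGA was in 0 of the 49 and in 3.79% of all windows. CACGTG was in 3 of the 49 (ELOVL5, LPIN2 and PLIN2), or 6.12%, and in 7.26% of all windows. CCAAT was in 18 of the 49, or 36.7%, and in 34.6% of all windows, so its share among the members was near that of all windows; in FADS2 it lay after a start, outside the bases shown.

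Elongases add pairs of carbons to acyl-CoA chains, and the 4 measured members moved in both directions. ELOVL6, which takes palmitate to stearate, went from 41.6 ± 3.12 to 47.5 ± 2.17 CPM, a log2 fold change of 0.19 ± 0.06 (edgeR adjusted p = 0.0144). This call was lost without control 1 (0.13, adjusted p = 0.103) or knockdown 2 (0.15, adjusted p = 0.0878) in edgeR, and in DESeq2's Wald test (adjusted p = 0.0521). ELOVL1, an elongase of saturated very long chains, went from 70.9 ± 2.19 to 65.4 ± 1.44 CPM, a log2 fold change of -0.12 ± 0.04 (edgeR adjusted p = 0.0454). Its call was lost without control 2, control 3, knockdown 1 or knockdown 2 (-0.12 to -0.09, adjusted p 0.0675 to 0.221 in edgeR) with the replicate block (adjusted p = 0.0744), and in DESeq2's Wald test. ELOVL5, which elongates polyunsaturated chains, had 153 ± 3.96 CPM in control and 148 ± 2.76 CPM in knockdown and did not pass the test (95% interval of the log2 fold change -0.12 to 0.03).

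ELOVL7 (GRCh37 chr5:60047618-60140101), also an elongase of very long chains, was expressed at a low level, with 44, 47 and 49 counts in control and 18, 37 and 41 in knockdown. That is 3.46, 3.72 and 4.09 CPM in control against 1.27, 2.19 and 2.30 CPM in knockdown, and the groups did not overlap, with knockdown 1 the lowest. The log2 fold change was -0.94 ± 0.22 (95% interval -1.40 to -0.48, 1.92-fold lower, edgeR adjusted p = 0.00207). In TPM the 6 measured elongases summed to 285 ± 9.36 in control and 267 ± 4.48 in knockdown. ELOVL5 took 48.5 ± 0.309% of this in control and 50.2 ± 0.389% in knockdown, ELOVL1 42.4 ± 0.386% and 41.8 ± 0.754%, ELOVL6 5.55 ± 0.353% and 6.78 ± 0.298%, and ELOVL7 0.850 ± 0.0698% and 0.463 ± 0.131%. The remainder came from ELOVL2, an elongase of polyunsaturated chains, and ELOVL4, which makes very long chains; neither belongs to the 38 genes. ELOVL2 went from 5.26 ± 0.991 to 1.18 ± 0.312 CPM (log2 fold change -2.14 ± 0.23, edgeR adjusted p = 5.25e-07). ELOVL4 went from 5.40 ± 0.415 to 1.45 ± 0.136 CPM (log2 fold change -1.89 ± 0.19, edgeR adjusted p = 2.55e-07).

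All 4 long-chain acyl-CoA synthetases among the members were called, 3 higher and 1 lower, and the median log2 fold change was 0.24. Of all tested genes 38.5% were called, 19.3% higher and 19.2% lower. ACSL5, which is known from intestinal epithelium and liver, had 13.1, 11.96 and 10.4 CPM in control and 26.0, 26.1 and 23.1 CPM in knockdown. The lowest knockdown library was well above the highest control, and no other member changed by as large a factor. The rise was 2.11-fold, a log2 fold change of 1.07 ± 0.09 (95% interval 0.89 to 1.26, edgeR adjusted p = 1.61e-08). ACSL4 (GRCh37 chrX:108867473-108976632), which prefers arachidonate and other polyunsaturated chains, had 179, 185 and 193 CPM in control and 236, 236 and 229 CPM in knockdown. The groups again stood apart, with a log2 fold change of 0.33 ± 0.03 (1.26-fold higher, edgeR adjusted p = 3.6e-07). ACSL1 went from 109 ± 6.13 to 121 ± 1.55 CPM (log2 fold change 0.15 ± 0.04, edgeR adjusted p = 0.00688). ACSL3, an enzyme of the endoplasmic reticulum and of lipid droplets, went the other way, from 94.9 ± 4.58 to 83.4 ± 1.499 CPM (log2 fold change -0.19 ± 0.04, edgeR adjusted p = 0.00214). These 4 calls held under all 22 alternatives.

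Together with ACSL6, which is not among the 38, the family summed to 234 ± 6.01 TPM in control and 276 ± 9.23 TPM in knockdown. The share of ACSL5 in this sum went from 3.89 ± 0.481% to 6.98 ± 0.356%, that of ACSL4 from 40.5 ± 1.45% to 43.3 ± 0.0806%, and that of ACSL3 from 18.2 ± 0.637% to 13.6 ± 0.178%. ACSL1 held 31.2 ± 1.48% and 29.5 ± 0.214%. ACSL4 was thus the most abundant synthetase per transcript length in both groups, and ACSL5 the least abundant in control. In knockdown ACSL5 stood at 19.3 ± 1.602 TPM.

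**Figure D2:**
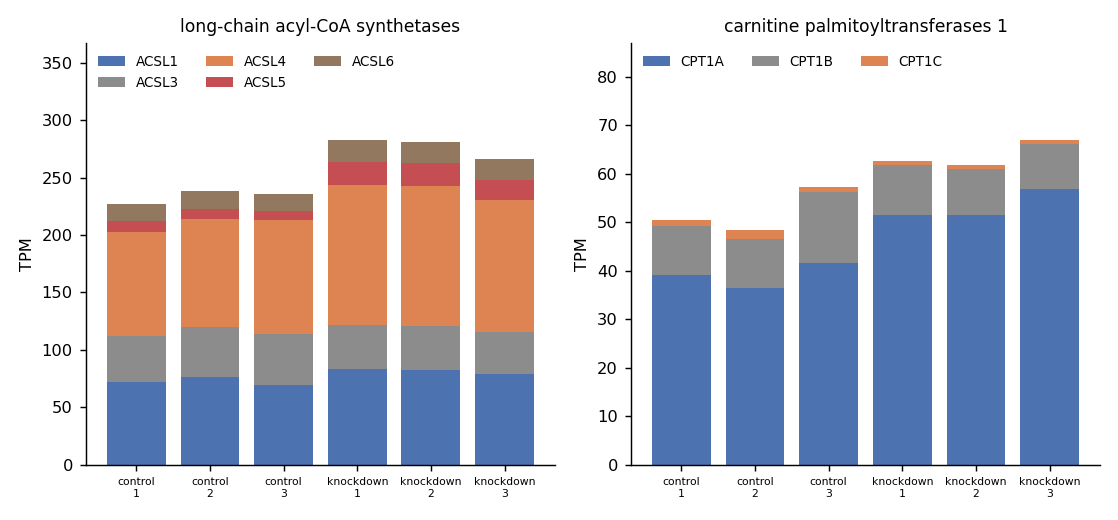
Stacked TPM of the long-chain acyl-CoA synthetases (left) and of the carnitine palmitoyltransferases 1 (right) in each of the 6 libraries; each bar is 1 library and each colour 1 gene. The synthetase sum averaged 234 TPM in control and 276 TPM in knockdown, and CPT1A held 75.2% of the CPT1 level in control and 83.6% in knockdown.

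ACSL5 (GRCh37 chr10:114133874-114188137) is shown with both of its listed starts because it had the largest rise of the 38 genes. The 250 bases upstream of each (RefSeq, GRCh38.p14, plus strand, 5′ to 3′) are chr10:112375018-112375267 and chr10:112375955-112376204; capitals would mark the motifs searched, and none is present.
ACSL5 upstream start: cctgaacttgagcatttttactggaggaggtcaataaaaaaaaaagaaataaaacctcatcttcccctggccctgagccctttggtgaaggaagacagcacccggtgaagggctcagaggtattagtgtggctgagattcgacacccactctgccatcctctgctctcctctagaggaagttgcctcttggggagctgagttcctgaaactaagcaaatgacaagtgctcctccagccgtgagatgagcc
ACSL5 downstream start: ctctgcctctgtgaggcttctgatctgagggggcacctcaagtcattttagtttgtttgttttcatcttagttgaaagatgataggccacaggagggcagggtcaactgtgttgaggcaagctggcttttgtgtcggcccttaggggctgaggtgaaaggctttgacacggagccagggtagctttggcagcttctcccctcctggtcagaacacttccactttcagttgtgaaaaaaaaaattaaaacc
These stretches were 50% and 48.8% G or C, with 3 and 2 CpG dinucleotides. The SCD stretch, with 23, was richer in CpG. GPAM, the glycerol-3-phosphate acyltransferase of mitochondria, lies upstream on the same chromosome (GRCh37 chr10:113909623-113975135). GPAM had 33.1 ± 2.54 CPM in control and 32.6 ± 1.70 CPM in knockdown and did not pass the test (log2 fold change -0.02, 95% interval -0.16 to 0.11).

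Of the 9 genes of triglyceride storage and lipolysis, GPAM included, 4 were called higher, 1 lower and 4 did not pass the test. Their median log2 fold change was 0.13, and among all tested genes 19.3% were called higher and 19.2% lower. The 4 higher storage genes were the 3 lipins, phosphatidate phosphatases that make diacylglycerol, and PLIN2, the coat protein of lipid droplets. LPIN2 had 53.5, 53.3 and 57.1 CPM in control and 64.9, 66.0 and 64.1 CPM in knockdown. Every knockdown library was above every control library (log2 fold change 0.25 ± 0.05, edgeR adjusted p = 0.000262). LPIN1, also a coactivator of PPAR-type transcription, went from 62.2 ± 1.68 to 69.99 ± 4.46 CPM (log2 fold change 0.17 ± 0.05, edgeR adjusted p = 0.0139). The LPIN1 call was lost without knockdown 1 (0.15, adjusted p = 0.052) or knockdown 2 (0.13, adjusted p = 0.0877) in edgeR. LPIN3 went from 17.96 ± 0.963 to 22.1 ± 2.99 CPM (log2 fold change 0.29 ± 0.09, edgeR adjusted p = 0.0152). Knockdown 1 was the highest library for LPIN3, at 25.5 CPM. Its call was lost without knockdown 1 (0.185, adjusted p = 0.0902) or without control 2 (0.25, adjusted p = 0.071) in edgeR.

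The canonical transcript of LPIN3 overlaps 621 of its 4462 bases with EMILIN3 on the opposite strand. EMILIN3 went from 3.51 ± 0.211 to 1.04 ± 0.391 CPM, the opposite direction to LPIN3. The 3 lipins summed to 61.0 ± 1.32 TPM in control and 71.6 ± 4.42 TPM in knockdown, with LPIN1 at 46.7 ± 1.36% and 45.0 ± 1.38% of the sum, a difference little above the SD of either group.

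PLIN2 had 82.3, 82.2 and 88.4 CPM in control and 95.1, 97.0 and 102 CPM in knockdown. The groups did not overlap, and the log2 fold change was 0.22 ± 0.04 (edgeR adjusted p = 0.00054). PLIN3, a second droplet coat protein, went from 62.4 ± 1.49 to 67.4 ± 4.23 CPM and did not pass the test (log2 fold change 0.11 ± 0.05, edgeR adjusted p = 0.0833); it was called higher without knockdown 1 (0.16, adjusted p = 0.0201). PNPLA2, the adipose triglyceride lipase that opens lipolysis, was the storage gene that fell, from 73.5 ± 2.85 to 66.0 ± 0.827 CPM (log2 fold change -0.15 ± 0.04, edgeR adjusted p = 0.00968). The acyltransferases of the last step of triglyceride synthesis did not pass the test. DGAT1 had 20.1 ± 1.09 CPM in control and 19.9 ± 1.73 CPM in knockdown (95% interval of the log2 fold change -0.18 to 0.15). DGAT2 had 5.31 ± 0.209 CPM and 5.80 ± 0.363 CPM (interval -0.16 to 0.41). The DGAT1 transcript shares 137 exonic bases with HSF1 on the opposite strand.

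**Figure D3:**
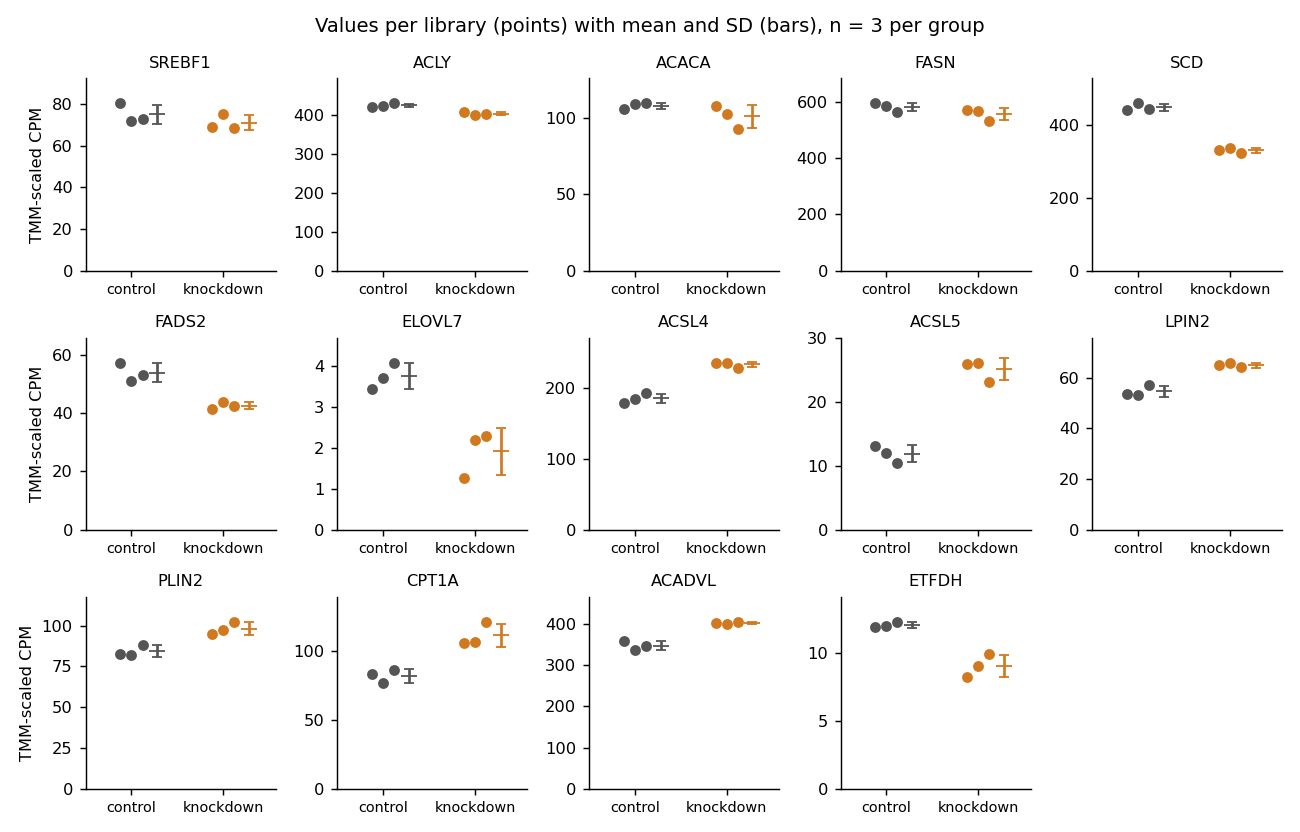
TMM-scaled CPM of 14 members in each library (points), with mean and SD of the 3 libraries of a group (bars); each panel has its own vertical axis from 0. SREBF1, ACACA and FASN overlap between groups, SCD, FADS2, ELOVL7 and ETFDH lie lower in knockdown, and ACSL4, ACSL5, LPIN2, PLIN2, CPT1A and ACADVL lie higher.

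Among the 10 oxidation genes, 4 were called higher, 2 lower and 4 did not pass the test, with a median log2 fold change of 0.01. The shares over all tested genes were 19.3% higher and 19.2% lower. CPT1A, the carnitine palmitoyltransferase that controls entry of long chains into mitochondria, had 83.0, 76.7 and 86.3 CPM in control and 106, 107 and 121 CPM in knockdown. The groups stood apart, with knockdown 3 the highest library. The rise was 1.36-fold, a log2 fold change of 0.45 ± 0.05 (95% interval 0.33 to 0.56, edgeR adjusted p = 2.30e-06). CPT1A made up 75.2 ± 2.50% of the CPT1 level in TPM in control and 83.6 ± 1.39% in knockdown. CPT1B, the muscle form, held 22.1 ± 2.89% and 15.1 ± 1.38%, and CPT1C the small remainder. CPT1B itself did not pass the test (log2 fold change -0.27, edgeR adjusted p = 0.0872). It had 10.61, 10.54 and 14.95 CPM in control and 10.48, 9.76 and 9.65 CPM in knockdown, so control 3 stood out. The 3 CPT1 genes together stood at 52.0 ± 4.69 TPM in control and 63.8 ± 2.76 TPM in knockdown.

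CPT1A (GRCh37 chr11:68522088-68611878, minus strand) is shown because it had the largest rise among the oxidation genes. The 250 bases upstream of its listed start are chr11:68844278-68844527 (RefSeq, GRCh38.p14, minus strand, 5′ to 3′), without any of the motifs searched and hence without capitals.
CPT1A: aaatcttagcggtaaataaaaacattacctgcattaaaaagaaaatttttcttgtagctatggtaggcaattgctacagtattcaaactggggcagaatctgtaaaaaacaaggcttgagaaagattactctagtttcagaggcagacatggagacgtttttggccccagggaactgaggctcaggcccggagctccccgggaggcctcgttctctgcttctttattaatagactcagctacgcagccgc
The stretch was 44.4% G or C and had 7 CpG dinucleotides.

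The carnitine steps after CPT1A did not pass the test. CPT2, which returns the chain to coenzyme A, had 26.5 ± 0.940 CPM in control and 26.1 ± 3.28 CPM in knockdown (log2 fold change -0.02, 95% interval -0.18 to 0.15). SLC25A20, the carnitine-acylcarnitine carrier, had 8.57 ± 0.409 CPM and 8.85 ± 1.47 CPM (log2 fold change 0.04, interval -0.23 to 0.30). The CPT2 transcript shares 99 exonic bases with CZIB on the opposite strand.

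ACADVL (GRCh37 chr17:7120444-7128585), the dehydrogenase of very long and long chains, had 358, 337 and 346 CPM in control and 403, 399 and 405 CPM in knockdown. No control library reached the lowest knockdown library, and the log2 fold change was 0.21 ± 0.03 (edgeR adjusted p = 1.80e-05). The medium-chain dehydrogenase ACADM had 68.96 ± 3.41 CPM in control and 68.4 ± 1.22 CPM in knockdown, with a 95% interval of the log2 fold change of -0.11 to 0.08. HADHA and HADHB encode the subunits of the mitochondrial trifunctional protein from adjoining genes on GRCh37 chromosome 2. HADHA went from 208 ± 4.75 to 224 ± 6.26 CPM (log2 fold change 0.11 ± 0.03, edgeR adjusted p = 0.0185). HADHB had 104 ± 4.08 CPM in control and 103 ± 1.83 CPM in knockdown (95% interval of the log2 fold change -0.10 to 0.07). The HADHA call was lost without control 1 or without knockdown 1 (both 0.09, edgeR adjusted p 0.0809 to 0.0848), and with upper-quartile factors (0.09, adjusted p = 0.0527) or library totals alone (0.08, adjusted p = 0.0818) for scaling.

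The 3 genes of the electron transfer chain from acyl-CoA dehydrogenases to ubiquinone did not move together. ETFB, the smaller subunit of the electron transfer flavoprotein, went from 178 ± 9.31 to 196 ± 7.19 CPM (log2 fold change 0.14 ± 0.04, edgeR adjusted p = 0.00888), a call lost without control 3 (0.11, adjusted p = 0.0503). Its partner subunit ETFA went from 109 ± 4.80 to 94.2 ± 2.01 CPM (log2 fold change -0.22 ± 0.04, edgeR adjusted p = 0.000397). ETFDH (GRCh37 chr4:159593120-159631894), the oxidoreductase that passes the electrons to ubiquinone, had 11.9, 11.96 and 12.3 CPM in control and 8.23, 8.99 and 9.88 CPM in knockdown. The groups did not overlap, and the fall was 1.33-fold (log2 fold change -0.41 ± 0.10, 95% interval -0.62 to -0.20, edgeR adjusted p = 0.00338). The ETFDH transcript overlaps 497 of its 3111 bases with PPID on the opposite strand. PPID had 75.2 ± 1.73 CPM in control and 75.9 ± 1.82 CPM in knockdown. Per transcript length the levels were far apart: ETFB stood at 509 ± 21.1 TPM in control, the highest of the 38 genes, ETFA at 119 ± 3.84 TPM and ETFDH at 9.65 ± 0.288 TPM.

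The 13 SREBP1-type synthesis genes (SREBF1, ACLY, ACSS2, ACACA, ACACB, FASN, SCD, ELOVL5, ELOVL6, FADS1, FADS2, GPAM and LPIN1) were then set against the 10 oxidation genes. Membership of the 13 came from textbook knowledge of SREBP1 targets and was not tested in these data. Of the SREBP1-type genes 4 were called lower (ACLY, SCD, FADS1 and FADS2), 2 higher (ELOVL6 and LPIN1) and 7 did not pass the test. That is 6 of 13 called, where 38.5% of all tested genes were, and 4 of 13 lower, where 19.2% were. Of these 13, 11 had log2 fold changes below 0, where 7025 of all 13832 tested genes did, and the median was -0.06. The oxidation genes were split evenly, with 5 above and 5 below 0 and a median of 0.01, beside -0.0039 over all tested genes. Relative to each gene's mean, the SREBP1-type median stood at 0.0025, 0.053 and 0.0103 (log2) in the control libraries and at -0.023, 0.00064 and -0.0894 in the knockdown libraries, so that knockdown 2 was about level with control 1. For the oxidation genes it stood at -0.018, 0.0358 and -0.0607 in control and 0.0433, -0.0096 and 0.022 in knockdown, and the groups overlapped. Without knockdown 2 the oxidation median was 0.0632. The distance between the 2 sets was not tested. SCD and FADS2 had the largest falls of the SREBP1-type genes, and CPT1A the largest rise of the oxidation genes. Being picked as the extremes of their sets, they lie beyond the medians by selection.

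Transcript length differed between the sets and moved with fold change. The SREBP1-type genes had a median canonical length of 5245 bases and the oxidation genes 2275, against 3279 for all tested genes. Over the 8861 genes that averaged at least 200 counts, Spearman's correlation of log2 fold change with length was 0.236, across genes, which share the same 6 libraries and are not independent. After a trend with length and GC content was removed within each library (chosen after the data were seen), this correlation was 0.00132. The median of the SREBP1-type genes was then -0.12 and that of the oxidation genes 0.06. On that scale SREBF1 (-0.12, limma adjusted p = 0.0298), ACACA (-0.17, limma adjusted p = 0.000753) and FASN (-0.13, limma adjusted p = 5.11e-05) were called lower. PLIN3 was called higher (0.12, limma adjusted p = 0.0388), and the call of ELOVL1 was lost (-0.06, limma adjusted p = 0.244). SCD (-0.48), FADS2 (-0.35), CPT1A (0.40) and ACSL5 (1.07) stayed close to their values as counted. The planned correction, with its trend taken over all tested genes, left the correlation with length at 0.248. With it, the SREBP1-type and oxidation medians moved by less than their SD between libraries within groups (0.0382 and 0.039). On that scale FASN was the member gained (-0.06, limma adjusted p = 0.0352) and no member's call was lost, while SREBF1 (-0.10, limma adjusted p = 0.0611), ACACA (-0.08, limma adjusted p = 0.0882) and PLIN3 (0.08, limma adjusted p = 0.185) did not pass the test.

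**Figure D4:**
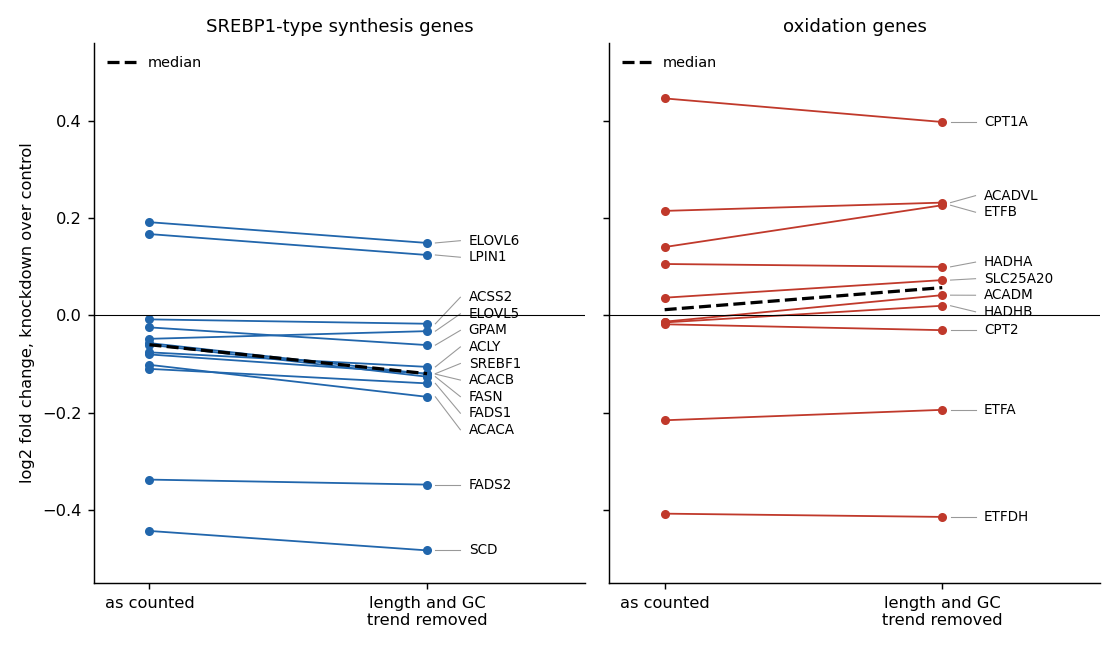
Log2 fold change of the 13 SREBP1-type genes (left) and the 10 oxidation genes (right), as counted and after the trend with transcript length and GC content was removed; each line is a gene and the dashed line the median. The trend shown is that of genes with at least 200 counts, chosen after the data were seen. The median went from -0.06 to -0.12 on the left and from 0.01 to 0.06 on the right, and CPT1A, SCD and ETFDH stayed at the edges.

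Other genes around these steps, 150 in 9 lists, of which 129 were tested, are described by their counts. These are to be read against all tested genes, of which 38.5% were called in either direction, 19.3% higher and 19.2% lower. Of 17 tested regulators of lipid metabolism, 3 were called higher and 6 lower, and the median log2 fold change was -0.09. INSIG1, the protein that holds SREBPs in the endoplasmic reticulum and is itself a target of them, went from 71.5 ± 1.43 to 52.6 ± 1.36 CPM (log2 fold change -0.44 ± 0.05, edgeR adjusted p = 2.58e-07). SREBF2, the gene of the sterol-directed SREBP2, fell by 0.25 on the log2 scale (edgeR adjusted p = 5.43e-05), where SREBF1 did not pass the test. The higher regulators with the smallest p were NR1H2, the liver X receptor beta (0.19, edgeR adjusted p = 0.00327), and the corepressor NCOR1 (0.15, edgeR adjusted p = 0.00247). Of 22 genes of sterol synthesis and uptake, 14 were called lower and 1 higher, and the median was -0.19. In this list 20 had log2 fold changes below 0, where 7025 of all 13832 tested genes did. IDI1, the isopentenyl diphosphate isomerase, had the smallest p (log2 fold change -0.57, edgeR adjusted p = 1.54e-07), followed by FDFT1, squalene synthase (-0.33, edgeR adjusted p = 3.21e-06).

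Of 8 genes that supply citrate, acetate or NADPH, 3 were called higher and 2 lower. The citrate carrier SLC25A1 (-0.24, edgeR adjusted p = 0.000589) and malic enzyme ME1 (-0.29, edgeR adjusted p = 8.12e-05) fell. The pentose phosphate gene PGD (0.17, edgeR adjusted p = 0.000535) and AACS, which activates acetoacetate (0.23, edgeR adjusted p = 0.00132), rose. Of 9 tested enzymes of chain length and double bonds outside the 38, 3 were called lower and 0 higher: ELOVL2, ELOVL4 and HACD3, a dehydratase of elongation named after its values were seen (-0.27, edgeR adjusted p = 1.13e-05). Of 16 tested synthetases, thioesterases and binding proteins, 4 were called higher and 1 lower. ACSL6 rose (0.31, edgeR adjusted p = 0.000103), as did the thioesterase ACOT2 (0.36, edgeR adjusted p = 5.48e-05), which has a near-identical copy in ACOT1 and is uncertain for that reason. The acyl-CoA binding protein gene DBI was called lower (-0.12, edgeR adjusted p = 0.0408). Its groups overlapped, and its call was lost without control 1, control 2, knockdown 1 or knockdown 2 (-0.11 to -0.09, adjusted p 0.0872 to 0.182 in edgeR), with the replicate block (adjusted p = 0.074), with the length and GC trend removed (-0.01, limma adjusted p = 0.797), without a filter, with the deposited signal and in DESeq2's Wald test. Of 18 tested glycerolipid and droplet genes, 4 were called higher and 4 lower. The acyltransferases AGPAT5 (0.22, edgeR adjusted p = 0.00169) and MOGAT3 (0.78, edgeR adjusted p = 0.005) rose, and AGPAT1 (-0.24, edgeR adjusted p = 0.00107) and the lipolysis inhibitor HILPDA (-0.29, edgeR adjusted p = 0.00634) fell. The HILPDA call was lost with thinned counts (-0.22, edgeR adjusted p = 0.0691).

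The further lists placed with oxidation, outside the 38 genes, also held calls in both directions. Of 19 further mitochondrial genes, 2 were called higher and 4 lower, a smaller share than the 38.5% of all tested genes, with a median of -0.07. HADH, the short-chain hydroxyacyl-CoA dehydrogenase (-0.22, edgeR adjusted p = 0.000584), and ACAD11 (-0.45, edgeR adjusted p = 6.64e-05) fell. HSD17B10 (0.18, edgeR adjusted p = 0.000583) rose, and ACAD8 was called higher (0.16, edgeR adjusted p = 0.0193). The list is not limited to enzymes of fatty acid breakdown, and the part of HSD17B10 and ACAD8 in it was not tested. The ACAD8 call was lost without control 3 or knockdown 3 (0.15 and 0.12, adjusted p 0.0511 and 0.0893 in edgeR), with library totals alone (adjusted p = 0.0518 in edgeR), with thinned counts (0.12, adjusted p = 0.107 in edgeR) and in DESeq2's Wald test (adjusted p = 0.0938). Of 13 tested peroxisomal genes, 2 were called higher and 0 lower: CROT, which moves shortened chains onto carnitine (0.28, edgeR adjusted p = 0.00254), and SCP2 (0.17, edgeR adjusted p = 0.00936). Of 7 tested genes of ketone bodies and PPARA-type targets, 2 were called higher and 2 lower. ACOT4 rose (1.06, edgeR adjusted p = 0.00219) from 1.29 ± 0.295 to 2.68 ± 0.404 CPM, and the ketone-using enzyme OXCT1 fell (-0.19, edgeR adjusted p = 0.00294). PDK4, a kinase that shuts pyruvate dehydrogenase and a PPARA target like CPT1A, was called higher (0.35, edgeR adjusted p = 0.0301), and BDH2 lower (-0.36, edgeR adjusted p = 0.0184). The PDK4 call was lost on leaving out any library except knockdown 3 (0.30 to 0.37, adjusted p 0.0516 to 0.107 in edgeR), and the BDH2 call on leaving out any except control 3 and knockdown 3 (-0.35 to -0.32, adjusted p 0.0534 to 0.0721 in edgeR). Both calls were also lost in DESeq2's Wald test (adjusted p = 0.128 and 0.0961).

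**Figure D5:**
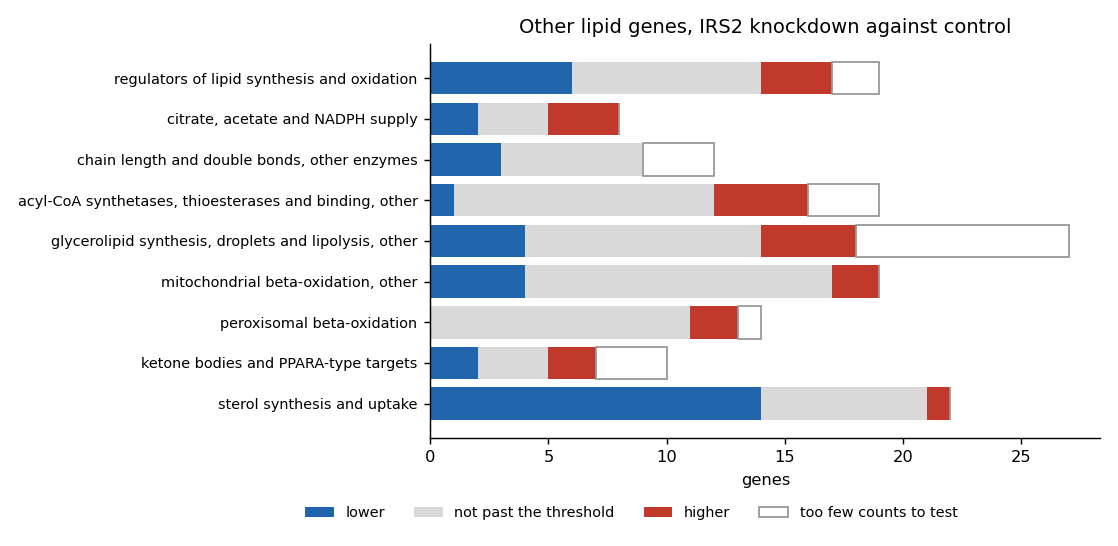
Number of genes called lower, not past the threshold, called higher or with too few counts to test in each of the 9 further lipid lists; bar length is the number of genes in the list. The sterol list has 14 of 22 genes called lower and 1 called higher, and each of the other lists has at most 6 called lower and at most 4 called higher.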

How the data were processed

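RNA-seq libraries of total RNA from 3 control and 3 IRS2 knockdown samples of SW403 cells were analysed; groups and replicate numbers come from the sample titles. The authors deposited a table of whole-number read counts per gene symbol and a table of normalized signal. Within a library, the deposited normalized signal is the count divided by a constant. The submitters' processing notes name STAR 2.6.1a, Salmon, DESeq2 and hg19, without their roles. Strand setting and annotation are not given in the sources used here. Depth and its range stand in the report, and the number of per-sample columns not used was 0.

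Counts were tested with edgeR 4.0.16 in R 4.3.3 (TMM factors, filterByExpr, quasi-likelihood F-test, group alone in the model), adjusted by Benjamini-Hochberg over 13832 genes with a threshold of 0.05. Standard errors were derived from F and the fold change. The number of libraries, 3 a group, limits the precision: permuting the samples exactly for 1 gene gives no two-sided p under 0.1. TPM used the canonical transcript length of GENCODE version 44 lifted to GRCh37, which 96.3% of tested genes had, and promoter windows are from RefSeq (GRCh38.p14). The length and GC correction was tested with limma 3.58.1 on log2 CPM computed with 2 as the prior count.

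The 38 genes, the other lists and the markers were chosen with earlier results of these data known. Values per library are given for SREBF1, FASN, ACACA, SCD and CPT1A, for called genes with an absolute log2 fold change of at least 0.3 and for the 2 genes of smallest p in each role. From each other list the called genes with the 2 smallest p in each direction are named. A gene of the sterol list is not reported here. RAI1, EMILIN3, PPID and HACD3 fall outside this rule and were chosen after their values were seen. Alternatives were other scalings (DESeq2 size factors, upper quartile, library totals), other filters (none, or a mean of at least 50 counts), DESeq2 1.42.0, limma voom, thinned counts, limma on log2 of the deposited signal plus 1 or 5, a threshold of 0.01, leaving out each library, a replicate block and the length and GC correction. The scripts were tested on simulated data.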

Additional observations from a re-analysis of the deposited data

How the results depend on the processing

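The 22 alternatives gave 835 values for the 38 genes: 742 kept direction and side of the threshold, 50 fell below it, 16 passed it and 27 changed sign, all 27 in genes that did not pass the test. For 30 named genes of the other lists, 611 of 657 values kept both and 46 fell below the threshold. Members called higher numbered 8 to 13 and called lower 7 to 12. At a threshold of 0.01 they were 8 and 7, and in DESeq2's Wald test 11 and 7. The median of the SREBP1-type genes ranged from -0.12 to -0.04 and that of the oxidation genes from -0.02 to 0.06 (log2). On leaving out 1 library in turn these ranges were -0.08 to -0.04 and -0.00048 to 0.0632, the last without knockdown 2. With the length and GC trend of genes with at least 200 counts removed, alone or with the replicate block, the medians were -0.119 and 0.0572, ACADM had 0.0417 and HADHB 0.0200. With the trend of all genes removed, alone or with the block, ACADM had 0.0205, and that trend removal left the correlation with length at 0.248. Without a filter ACSS2 had 0.0035, and with thinned counts SLC25A20 had -0.0059. Leaving out 1 library gave ranges of -0.112 to 0.0359 for ACACB, -0.0477 to 0.0117 for ACADM, -0.0374 to 0.0194 for ACSS2, -0.128 to 0.0397 for CPT2, -0.0668 to 0.056 for DGAT1, -0.0878 to 0.0217 for GPAM, -0.0454 to 0.0172 for HADHB, -0.107 to 0.0395 for SCD5 and -0.0774 to 0.151 for SLC25A20. The cause of these changes was not tested. With the replicate block 12 members were higher and 7 lower, with ACLY, ELOVL1 and FADS1 no longer called, and IRS2 had -1.39. Same-numbered libraries correlated at 0.0447, -0.0112 and -0.0981 in their deviations from the group means, so the numbers were not read as pairs. ELOVL7 was not tested at a mean of at least 50 counts. Genes of low count, such as ELOVL7 and DGAT2, have the widest intervals.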
